A study of Gallus gallus with 12 samples.

Results

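The genes described here encode 7 enzymes of triglyceride synthesis, GPAM, AGPAT2, AGPAT3, LPIN1, LPIN2, DGAT2 and MOGAT1, followed in liver and abdominal fat of chickens on a high-fat diet (HFD) or a normal diet (ND). They are 7 of the 18332 genes listed for every sample, found by their symbols. The set was selected on values of these same samples, namely the diet differences of GPAM and MOGAT1 in liver and of DGAT2 in abdominal fat. The levels and differences of the 7 genes are therefore given as a description, with no test. Tests are given only for other genes of the pathway, whose list was also drawn up with earlier results of these data known.

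The samples came from female Xinghua chickens, a Chinese native breed, all of the sex-linked dwarf type, which were 8 weeks old when the diets began. Every bird, controls included, carried the dw gene, a mutation of the growth hormone receptor, so no group stands for chickens with an intact receptor. HFD chickens received a diet with 25% fat and ND chickens, the controls, a diet with 5% fat, each for 2 weeks. Liver and abdominal fat of 3 birds per diet gave 12 samples, 3 in each of 4 groups. The birds sequenced were those with the higher abdominal fat rate on HFD and those with the lower rate on ND, so the effect of the diet and of this selection cannot be told apart. Replicate numbers are those of the labels, and each number is read as a separate bird within its group.

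Triglyceride is built on glycerol 3-phosphate in a series of steps. A glycerol-3-phosphate acyltransferase such as GPAM adds the first fatty acid, an AGPAT enzyme adds the next to give phosphatidate, a lipin removes the phosphate to give diacylglycerol, and a DGAT enzyme adds the last fatty acid. MOGAT1 belongs to a shorter route, in which monoacylglycerol is acylated to diacylglycerol directly. In birds the liver is the main site of fatty acid synthesis, and abdominal fat stores triglyceride that largely arrives from the liver in lipoproteins.

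Levels are given in FPKM, fragments per kilobase of each transcript, relative to all mapped fragments of the sample, so levels of different genes can be set side by side. Each liver sample had 10799 to 11270 genes at 1 FPKM or more and each abdominal fat sample had 12221 to 12492. The 10 most expressed genes took 25.6% to 30.1% of the summed FPKM in liver and 9.30% to 9.95% in abdominal fat. The number of reads is not given with FPKM, so the counting error of a single value is unknown. All 8 hepatocyte markers examined summed to 64587 to 101657 FPKM in the livers. All 6 adipocyte markers summed to 12701 to 15611 FPKM in abdominal fat, mostly from FABP4, and to 68.3 to 257 FPKM in liver. Most of the liver sum was CIDEC, at 43.7 to 242 FPKM, while ADIPOQ and PPARG were at 1.42 FPKM or less in every liver. Some fat samples stood apart in markers of other cells. ND fat 2 had 3724 FPKM of hepatocyte markers, against 3.70 to 95.5 FPKM in the other 5 fat samples, and each of the 8 markers was there at 3.06% to 5.07% of its mean in ND liver. In HFD fat 1 the 4 skeletal muscle markers found summed to 374.7 FPKM, against 16.1 to 60.8 FPKM in the other fat samples. The 4 erythrocyte markers found summed to 1772 FPKM in ND fat 3, against 259 and 413 FPKM in the other ND fat samples and 761 to 1003 FPKM on HFD. In bulk tissue, fewer cells of a type and less RNA per cell cannot be told apart.

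The genes described differed in level between liver and abdominal fat. Summed over the genes found, the steps of GPAM, the AGPAT enzymes and the lipins were nonetheless expressed in each tissue. On ND these sums were 42.1, 100.1 and 25.5 FPKM in liver and 70.6, 49.9 and 24.2 FPKM in fat. On HFD they were 62.7, 104 and 42.9 FPKM in liver and 70.7, 49.2 and 24.5 FPKM in fat. MOGAT1 and GPAM were mainly liver genes, DGAT2 was a gene of abdominal fat, AGPAT3 and LPIN2 were higher in liver, LPIN1 had the higher mean in fat, and AGPAT2 differed least on the deposited FPKM. Between the diets, HFD livers had more GPAM and less MOGAT1 than ND livers, and HFD fat had more DGAT2 than ND fat.

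**Figure D1:**
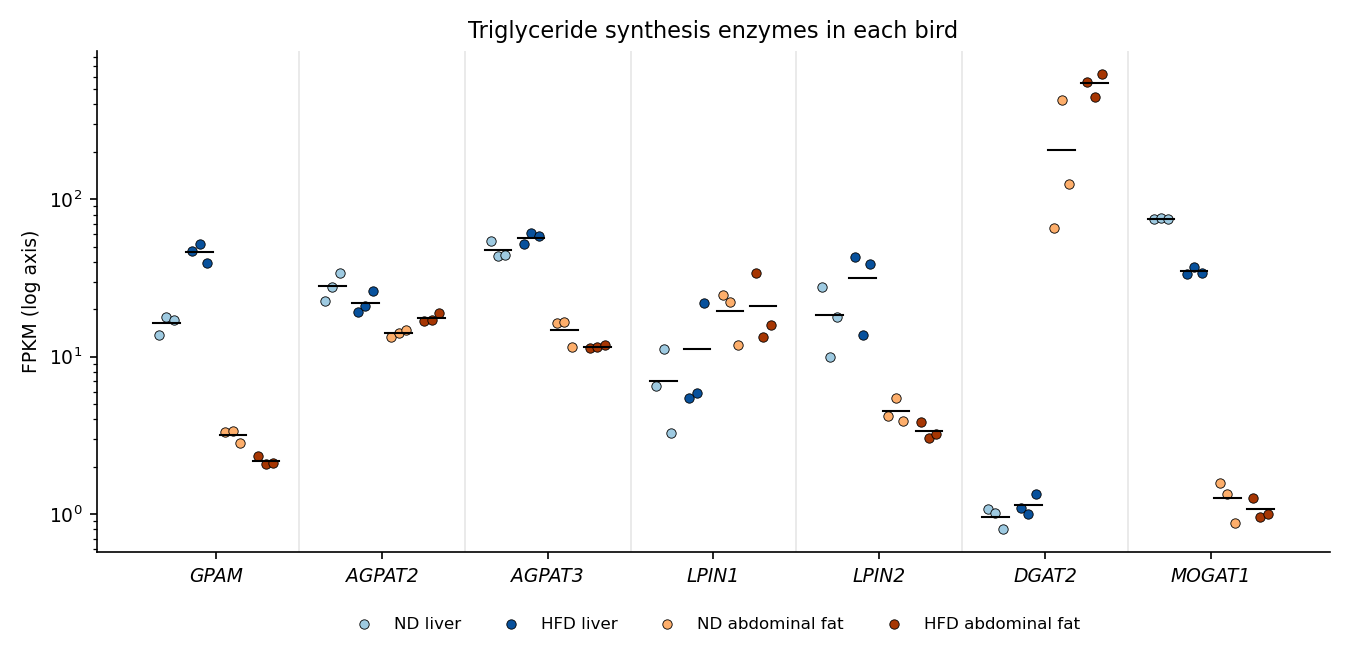
FPKM (log axis) of the 7 enzymes in each of the 12 samples, coloured by tissue and diet, with a bar at each group mean. DGAT2 lies between 65.4 and 628 FPKM in fat and between 0.80 and 1.35 FPKM in liver, while MOGAT1 lies between 33.6 and 75.8 FPKM in liver and between 0.88 and 1.57 FPKM in fat.

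GPAM is the mitochondrial glycerol-3-phosphate acyltransferase and opens the route. It was measured at 46.9, 52.1 and 39.5 FPKM in HFD liver 1, 2 and 3 and at 13.8, 18.0 and 17.1 FPKM in ND liver 1, 2 and 3. Every HFD liver was above every ND liver, with means of 46.2 ± 6.32 against 16.3 ± 2.21 FPKM (SD, n = 3), a ratio of 2.83 that lay between 2.63 and 3.04 when each bird was left out in turn. In abdominal fat the order was the opposite at a much lower level, with 2.35, 2.09 and 2.10 FPKM in HFD fat and 3.32, 3.39 and 2.83 FPKM in ND fat. The HFD fat samples were all below the ND fat samples, and the ND mean was 1.46 times the HFD mean. Without ND fat 2, the sample with hepatocyte markers, it was 1.41 times the HFD mean. The part of hepatocytes in that sample's GPAM was not tested. Liver was above fat on both diets, by 5.12 times on ND and by 21.2 times on HFD. On the scale of log2(FPKM + 1), on which all differences below are given and which understates those of genes with low FPKM, HFD minus ND was 1.45 in liver (standard error, SE, 0.154) and -0.39 in fat (SE 0.118).

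The weight of GPAM among the genes of its own step differed with the tissue and the diet. The step has 4 genes in the files, GPAM, GPAT2, GPAT3 and GPAT4, and their FPKM were added for each sample. GPAM made up 77.0%, 72.0% and 72.0% of that sum in HFD liver 1, 2 and 3 and 34.5%, 41.7% and 39.7% in ND liver 1, 2 and 3. In the ND livers GPAT3 and GPAT4, the microsomal enzymes of the step, held 31.3 ± 2.48% and 29.1 ± 2.84% (SD, n = 3), and in the HFD livers 13.4 ± 3.52% and 12.2 ± 1.34%. In abdominal fat GPAT3 led the step. It held 79.1 ± 1.84% of the sum on HFD and 76.1 ± 1.72% on ND, and GPAM 3.11 ± 0.268% and 4.53 ± 0.330%. The sum itself was 62.7 ± 8.88 FPKM in HFD liver, 42.1 ± 1.79 FPKM in ND liver, 70.7 ± 11.2 FPKM in HFD fat and 70.6 ± 10.01 FPKM in ND fat. Since shares add to 100%, a higher share of GPAM lowers the others by construction. The level of GPAT4, named after its values were seen, was 7.56 ± 0.211 FPKM in the HFD livers and 12.2 ± 0.788 FPKM in the ND livers, without overlap, but this difference did not pass the test across all genes (-0.62, SE 0.118, adjusted p = 0.160 from limma). Over the alternatives its adjusted p ran from 0.0267 to 0.38, and it passed only when the 12 samples shared a fit.

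**Figure D2:**
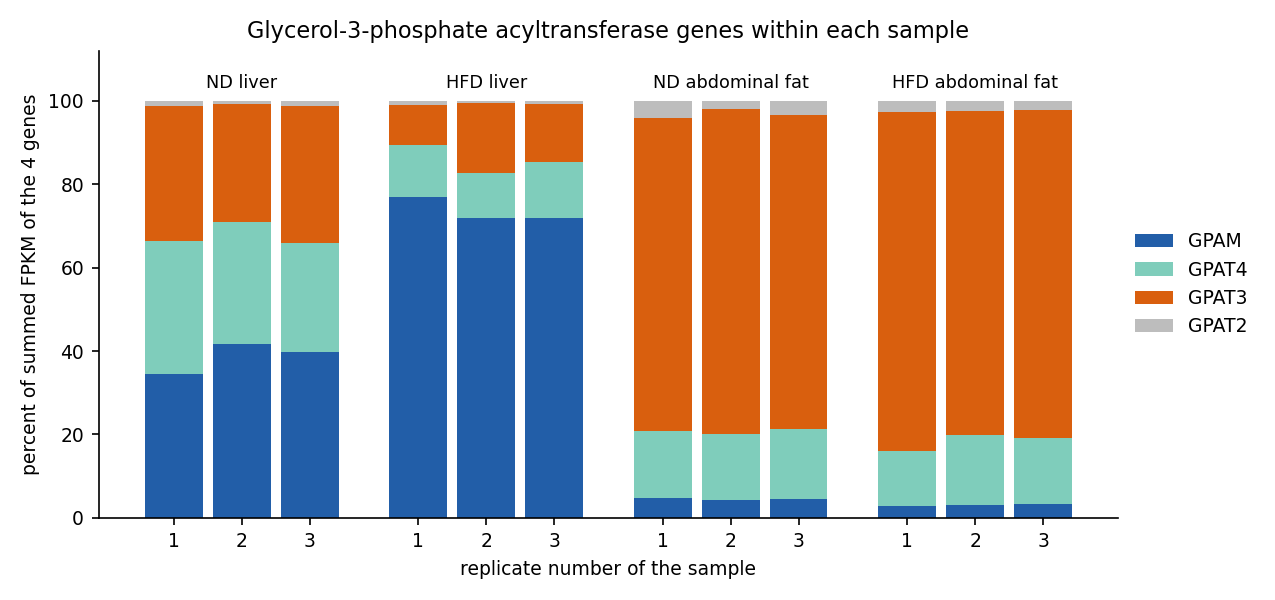
Share, in percent of summed FPKM, of the 4 glycerol-3-phosphate acyltransferase genes in each sample, with samples by replicate number within each group. GPAM takes 72.0% to 77.0% in the HFD livers and 34.5% to 41.7% in the ND livers, and GPAT3 takes most of every fat sample.

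AGPAT2 and AGPAT3 add the next fatty acid. Loss of AGPAT2 causes generalized lipodystrophy in humans, and AGPAT3 is an enzyme of the same family with broad expression in mammals. AGPAT2 was measured at 19.1, 21.0 and 26.1 FPKM in the HFD livers and at 22.6, 27.8 and 34.1 FPKM in ND liver, so the diets overlapped. In abdominal fat it was at 16.9, 17.0 and 18.8 FPKM on HFD and at 13.4, 14.1 and 14.9 FPKM on ND. There the HFD samples were all higher, by a ratio of means of 1.25 and a log2 difference of 0.30 (SE 0.094). Liver exceeded fat by 1.99 times on ND and by 1.26 times on HFD.

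AGPAT3 showed a wider gap between the tissues. Its levels were 52.1, 60.6 and 58.1 FPKM in HFD livers and 54.6, 43.4 and 44.5 FPKM in ND liver. In fat they were 11.4, 11.6 and 11.9 FPKM on HFD and 16.3, 16.6 and 11.6 FPKM on ND. The diets overlapped in both tissues, and liver was above fat by 3.20 times on ND and 4.91 times on HFD. Among the 5 AGPAT genes found, AGPAT3 held 54.8 ± 3.05% of the summed FPKM in HFD livers and 47.4 ± 5.09% in ND liver (SD, n = 3). In abdominal fat the step was spread more evenly, with AGPAT2 at 35.8 ± 1.97% on HFD and 28.3 ± 2.16% on ND. The summed AGPAT level in liver was 104 ± 10.8 FPKM on HFD and 100.1 ± 4.57 FPKM on ND, and was 49.2 ± 3.33 and 49.9 ± 1.13 FPKM in fat.

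LPIN1 and LPIN2 encode phosphatidate phosphatases, which also act in the nucleus as regulators of transcription in mammals. LPIN1 varied widely between birds of 1 group. It was measured at 5.45, 5.90 and 22.0 FPKM in HFD liver, at 6.50, 11.2 and 3.26 FPKM in ND liver, at 34.1, 13.4 and 15.9 FPKM in HFD fat and at 24.7, 22.4 and 11.8 FPKM in ND fat. HFD liver 3 and HFD fat 1 stood above the other birds of their groups, and the diets overlapped in both tissues. The HFD to ND ratio of means in liver was 1.60 and became 0.814 without HFD liver 3. In fat the log2 difference was 0.05 (SE 0.404), and over the samples left out in turn it ran from -0.34 without HFD fat 1 to 0.30. The fat mean was 2.81 times the liver mean on ND and 1.90 times on HFD, where it became 3.72 without HFD liver 3. HFD fat 1 was also the sample with the highest skeletal muscle markers, whose part in its LPIN1 level was not tested.

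LPIN2 was at 42.9, 13.8 and 38.6 FPKM in the HFD livers and at 27.7, 9.95 and 17.9 FPKM in ND liver, with replicate 2 lowest on each diet and the diets overlapping. Abdominal fat held much less, 3.85, 3.03 and 3.24 FPKM on HFD and 4.19, 5.47 and 3.93 FPKM on ND. There all HFD samples were below all ND samples, though the nearest pair was at 3.85 and 3.93 FPKM, and the log2 difference was -0.33 (SE 0.153). The highest fat value was that of ND fat 2, the sample with hepatocyte markers, whose part in it was not tested. The HFD to ND ratio of means in fat was 0.745, and 0.831 without ND fat 2. The lipins thus differed in weight between the tissues. LPIN1 held 84.8 ± 4.42% (HFD) and 80.3 ± 5.22% (ND) of the summed lipin FPKM in fat (SD, n = 3), and 25.9 ± 13.0% and 29.1 ± 20.7% in liver.

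MOGAT1 acylates monoacylglycerol, outside the glycerol 3-phosphate route. In ND liver 1, 2 and 3 it was measured at 75.0, 75.8 and 75.1 FPKM, and in HFD liver 1, 2 and 3 at 33.6, 37.0 and 33.9 FPKM. The birds of a diet were close to each other and the diets were far apart, with means of 75.3 ± 0.445 and 34.8 ± 1.90 FPKM (SD, n = 3). The ND mean was 2.16 times the HFD mean, and the log2 difference was -1.09 (SE 0.103). MOGAT1 was the highest of the 7 genes in ND liver, clear of AGPAT3, and followed AGPAT3 and GPAM in HFD liver, where it overlapped LPIN2. In abdominal fat it was at 1.26, 0.96 and 1.01 FPKM on HFD and at 1.57, 1.34 and 0.88 FPKM on ND, so the diets overlapped. ND fat 2, the sample with hepatocyte markers, held 1.78% of the ND liver mean of MOGAT1, within the 1.17% to 2.08% of the other 5 fat samples. Its relative MOGAT2 was at 0 to 0.48 FPKM in all 12 samples.

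GPAM and MOGAT1 exchanged rank in liver with the diet. The ratio of GPAM to MOGAT1 FPKM was 1.40, 1.41 and 1.16 in HFD liver 1, 2 and 3 and 0.184, 0.237 and 0.228 in ND liver 1, 2 and 3. Every HFD liver thus had more GPAM than MOGAT1, and every ND liver had more MOGAT1 than GPAM.

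DGAT2 catalyses the last step, the acylation of diacylglycerol to triglyceride. It was measured at 556, 448 and 628 FPKM in HFD fat 1, 2 and 3 and at 65.4, 424 and 125 FPKM in ND fat 1, 2 and 3. All HFD fat samples were above all ND fat samples, but ND fat 2 was close to the lowest HFD sample while the other ND birds were far below. The means were 544 ± 91.0 and 205 ± 192 FPKM (SD, n = 3), a ratio of 2.65, which became 5.70 without ND fat 2, 1.98 without ND fat 1 and 2.22 without ND fat 3. On the log2 scale HFD minus ND was 1.82 (SE 0.633), and 2.56 (SE 0.305) without ND fat 2. In HFD fat DGAT2 ranked between 118 and 183 among all genes of the sample by FPKM, and in ND fat between 186 and 1097.

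In liver DGAT2 was near 1 FPKM in every bird, at 1.10, 1.00 and 1.35 FPKM on HFD and at 1.08, 1.02 and 0.80 FPKM on ND, with the diets overlapping. The fat mean was 212 times the liver mean on ND, 98.7 times without ND fat 2, and 473 times on HFD. ND fat 2, the sample with hepatocyte markers, had the highest DGAT2 of the ND fat samples, at 424 FPKM. Its hepatocyte markers were at 3.06% to 5.07% of their ND liver means, and whole livers held 0.80 to 1.35 FPKM of DGAT2. The part of hepatocytes in the DGAT2 level of ND fat 2 was not tested. DGAT1, which encodes the other enzyme of this step, was not analysed here.

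**Figure D3:**
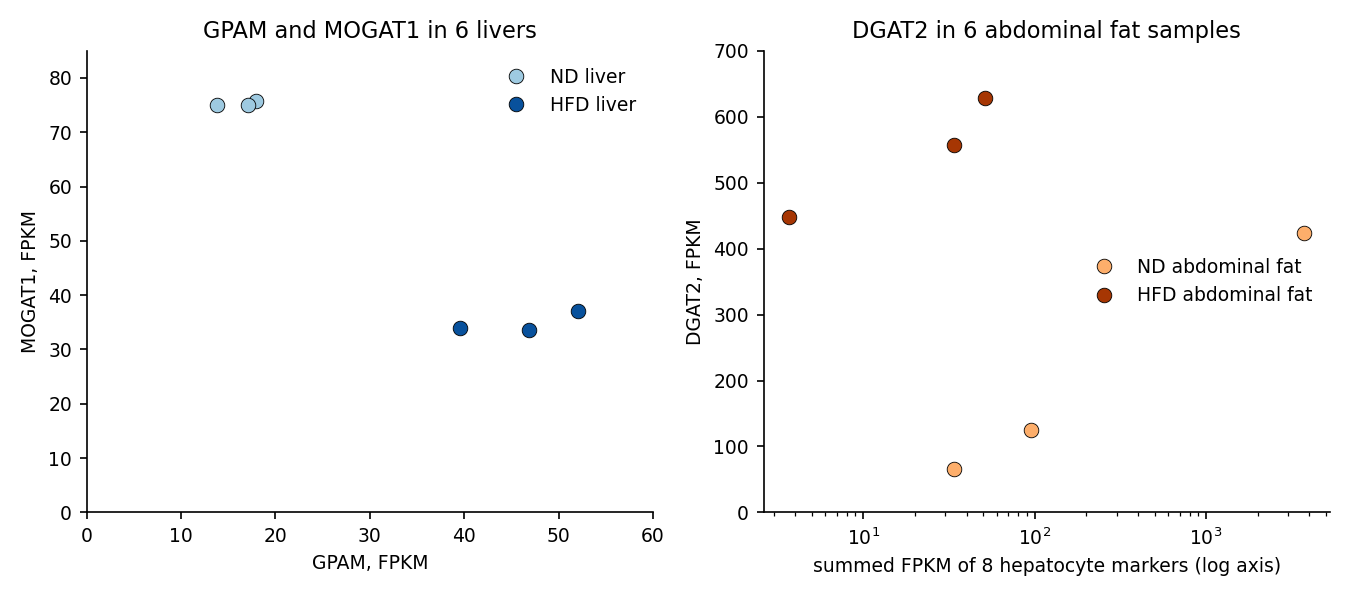
Left, MOGAT1 against GPAM in FPKM in the 6 livers, where HFD birds lie at 39.5 to 52.1 FPKM of GPAM and 33.6 to 37.0 FPKM of MOGAT1, and ND birds at 13.8 to 18.0 and 75.0 to 75.8 FPKM. Right, DGAT2 in FPKM against the summed FPKM of 8 hepatocyte markers (log axis) in the 6 abdominal fat samples, where ND fat 2 lies apart at 3724 FPKM of markers and 424 FPKM of DGAT2.

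The order of the 7 genes within each group sums up these levels. In HFD liver it ran AGPAT3, GPAM, MOGAT1, LPIN2, AGPAT2, LPIN1 and DGAT2, and of the neighbours in this order only GPAM and MOGAT1, and LPIN1 and DGAT2, did not overlap. In ND liver it ran MOGAT1, AGPAT3, AGPAT2, LPIN2, GPAM, LPIN1 and DGAT2, with overlaps between AGPAT2 and LPIN2 and between LPIN2 and GPAM. HFD fat had the order DGAT2, LPIN1, AGPAT2, AGPAT3, LPIN2, GPAM and MOGAT1, in which only LPIN1 and AGPAT2 overlapped. ND fat differed from it in having AGPAT3 before AGPAT2, and there LPIN1, AGPAT3 and AGPAT2 overlapped in turn.

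Between liver and abdominal fat, the ranges of 5 genes lay higher in liver and those of 2 lay lower on ND, against 14.4% and 59.5% of all 15447 genes tested. On HFD the same 5 genes lay higher in liver and DGAT2 lay lower, against 16.5% and 58% of all genes, and LPIN1 overlapped. For AGPAT2 on HFD the nearest pair was at 19.1 FPKM in liver and 18.8 FPKM in fat. Since the set was chosen on values of these same samples, nothing is read from these counts. The median over all genes was itself below 0 on the log2 scale, at -0.57 on ND and -0.47 on HFD, and quantile normalization brought it to -0.02 and close to 0. Beside that shift, the liver minus fat differences on ND were 5.09 (SE 0.123) for MOGAT1 and -6.28 (SE 0.492) for DGAT2. On HFD they were 4.11 and -7.98. No difference between the tissues changed sign for any of the 7 genes under either scaling tried, quantile normalization or median-of-ratios scaling, but their sizes moved. AGPAT2 went from 0.93 on ND and 0.30 on HFD to 1.78 and 0.98 with median-of-ratios scaling, and LPIN1 from -1.44 and -1.02 to -0.62 and -0.37, so that LPIN1 and not AGPAT2 then differed least.

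Between the diets, GPAM was higher and MOGAT1 lower without overlap in liver, beside 14.3% and 5.82% of the 14513 genes tested there, and the other 5 genes overlapped. In abdominal fat AGPAT2 and DGAT2 were higher and GPAM and LPIN2 lower without overlap, beside 5.33% and 8.13% of 15416 genes. Since the set was chosen with such differences known, nothing is read from these counts.

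In the fat samples, the 4 immune cell markers found summed to 2283 to 2574 FPKM on HFD and 2724 to 3046 FPKM on ND, without overlap and with none of them at 0. The erythrocyte markers overlapped, at 761 to 1003 FPKM on HFD and 259 to 1772 FPKM on ND, with 1 of the 4 at 0 in 5 of the 6 fat samples. The part of either list in the diet differences of AGPAT2, DGAT2, GPAM and LPIN2 was not tested. In liver the immune cell markers summed to 380 to 662 FPKM on HFD and 581 to 859 FPKM on ND, and the diets overlapped. Most of each immune cell sum, in fat and in liver, was CD74. In fat each of the 4 markers was lower on HFD without overlap. In liver the means of CD74 and CD79B were lower on HFD and those of PTPRC and CD3E higher, all with overlap.

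The diet difference of GPAM in liver exceeded that in abdominal fat by 1.84 on the log2 scale (SE 0.188). Corresponding values were -1.69 (SE 0.696) for DGAT2, -0.98 (SE 0.174) for MOGAT1, 1.04 (SE 0.575) for LPIN2, -0.63 (SE 0.214) for AGPAT2, 0.58 (SE 0.199) for AGPAT3 and 0.42 (SE 0.775) for LPIN1. Since the liver and fat differences behind these values were known when the set was chosen, no test of them is given. Without ND fat 2 the DGAT2 value was -2.43.

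**Figure D4:**
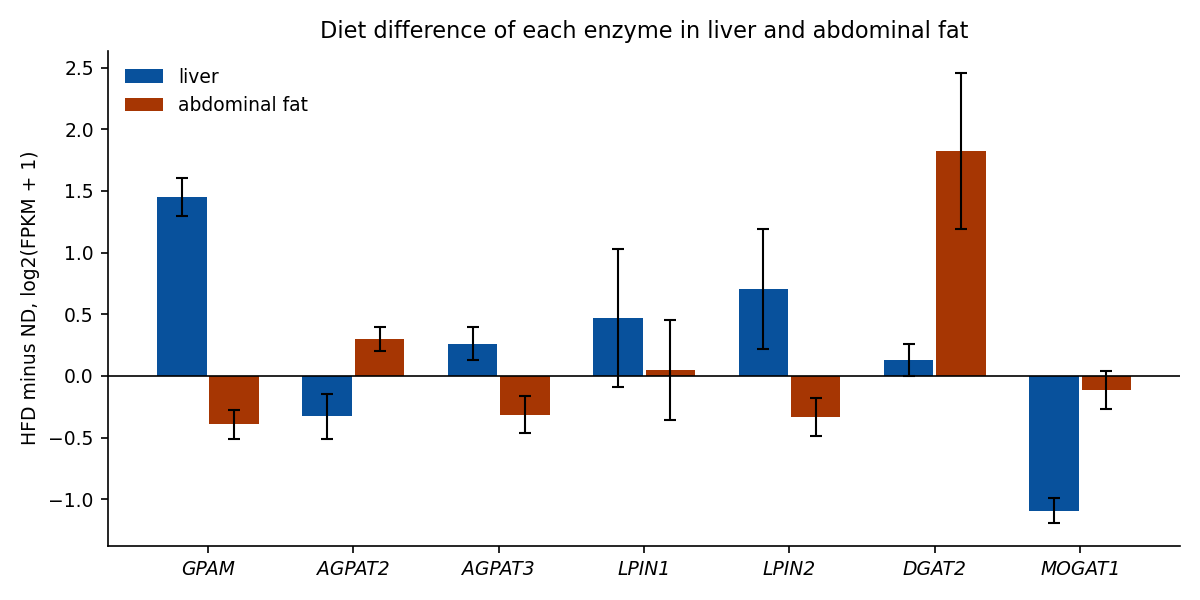
HFD minus ND difference of each enzyme on the log2(FPKM + 1) scale in liver and in abdominal fat, with bars for the estimate and whiskers for 1 standard error. GPAM stands at 1.45 in liver and -0.39 in fat, MOGAT1 at -1.09 in liver, and DGAT2 at 1.82 in fat with a wide error.

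The other genes of the pathway were taken from a list of 35 names. Of these, 27 had a row of their own, 3 were older names of these rows and 5 were not analysed here. The list was drawn up with earlier results of these data known, so the tests below are not of genes chosen blind to them. The 27 genes cover the enzymes of the same steps, the supply of glycerol 3-phosphate and acyl-CoA, and the exits from the route into phospholipid. In each fit 25 of them passed the filter, a mean of 0.1 FPKM or more. The 25 include AGPAT1 and not MOGAT2 in the fits with liver samples, and MOGAT2 and not AGPAT1 in the fit of abdominal fat alone.

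Of these 25 genes, 10 were higher and 10 lower in liver than in abdominal fat on ND, and 11 were higher and 11 lower on HFD (limma on all 12 samples, adjusted p of at most 0.05 with Benjamini-Hochberg adjustment over all genes). Of all 15447 genes, 13.7% were called higher and 57.9% lower on ND, and 14.6% and 53.9% on HFD. With quantile normalization the counts were 14 and 7 on ND and 13 and 7 on HFD, so the balance between the directions depended on the scaling. Their median difference was 0.09 on ND and 0.35 on HFD, beside -0.57 and -0.47 over all genes. Of the 11 genes that supply acyl-CoA and glycerol 3-phosphate, 3 were higher and 4 lower in liver on ND, and 4 and 4 on HFD. ACSL5, an acyl-CoA synthetase, was at 28.7 ± 14.8 FPKM in ND liver and 2.96 ± 0.966 FPKM in ND fat (2.83, SE 0.295, adjusted p = 5.71e-06), and on HFD the difference was 4.63 (adjusted p = 1.12e-07). Its relative ACSL4, which prefers arachidonate, was at 1.76 ± 1.11 FPKM in ND liver and 27.9 ± 6.94 FPKM in ND fat (-3.43, SE 0.273, adjusted p = 6.53e-07).

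Glycerol kinase, GK, was higher in liver at 77.5 ± 20.7 against 25.7 ± 7.07 FPKM on ND (1.56, SE 0.205, adjusted p = 3.65e-05), while GPD1L, a relative of glycerol-3-phosphate dehydrogenase, was lower at 2.2 ± 0.306 against 14.7 ± 0.542 FPKM (-2.30, SE 0.113, adjusted p = 1.79e-08). Among the exits into phospholipid, SELENOI, which makes phosphatidylethanolamine from diacylglycerol, was at 125 ± 5.92 FPKM in ND liver and 6.57 ± 1.43 FPKM in ND fat (4.08, SE 0.171, adjusted p = 6.86e-09). PEMT, which methylates phosphatidylethanolamine to phosphatidylcholine, was higher in liver by 2.46 (SE 0.173, adjusted p = 2.44e-07). CHPT1, which makes phosphatidylcholine from diacylglycerol, had the opposite pattern, with 1.79 ± 0.645 FPKM in ND liver and 42.0 ± 4.05 FPKM in ND fat (-3.97, SE 0.158, adjusted p = 4.75e-09). CDS2, which takes phosphatidate towards phosphatidylinositol, was also lower in liver, with a difference of -3.03 (SE 0.186, adjusted p = 8.53e-08). On HFD, SELENOI, PEMT, CHPT1 and CDS2 were called in the same directions. GPAT3 was called lower in liver on both diets (limma). On HFD it was at 8.503 ± 3.19 FPKM in liver and 56.0 ± 10.2 FPKM in fat (-2.62, SE 0.217, adjusted p = 9.14e-07). The difference on ND was -1.94 (SE 0.217, adjusted p = 1.00e-05).

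**Figure D5:**
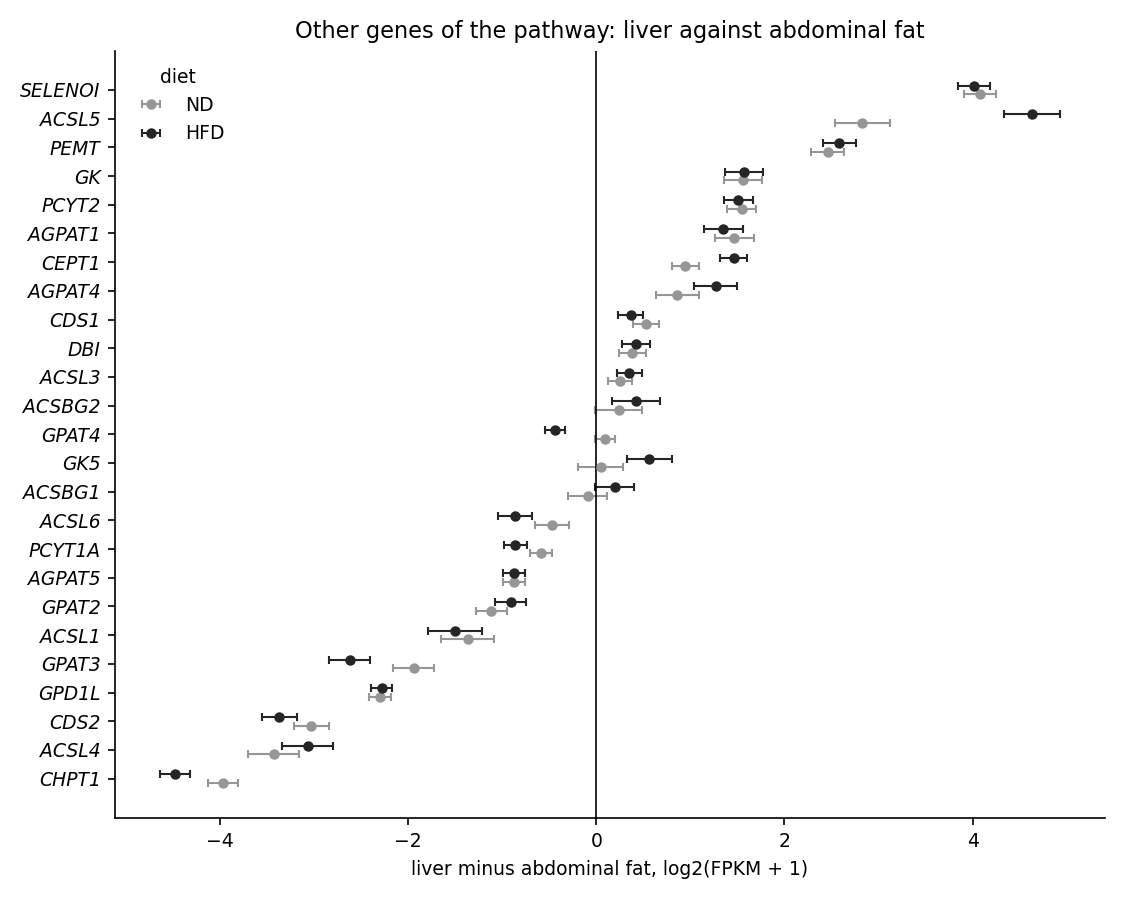
Liver minus abdominal fat difference on the log2(FPKM + 1) scale of the 25 other genes of the pathway, for ND (grey) and HFD (black), with whiskers for 1 standard error. SELENOI, ACSL5 and PEMT lie at the liver end and CHPT1, ACSL4 and CDS2 at the fat end on both diets.

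Between the diets, 0 of the 25 genes passed the test in liver (limma on the 6 livers), where 0% of all 14513 genes did. Before adjustment 6 of them had a p under 0.05, 3 higher and 3 lower, beside 13.9% of all genes tested. The largest difference was that of ACSL5, with 88.1, 77.5 and 69.6 FPKM in HFD livers and 21.4, 18.9 and 45.8 FPKM in ND liver. All HFD livers were above all ND livers, by a ratio of means of 2.73, close in size to that of GPAM, and ND liver 3 stood above its group. The log2 difference was 1.52 (SE 0.310) with an adjusted p of 0.182 from limma, which ran from 0.0469 to 0.405 over the alternatives and passed only when the 12 samples shared a fit. GK5, a relative of glycerol kinase, came next at 7.97 ± 1.63 against 4.86 ± 1.85 FPKM (0.64, SE 0.25, adjusted p = 0.337).

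In abdominal fat 0 of 25 genes passed, beside 0.00649% of all 15416 genes (1 gene), and 0 had an unadjusted p under 0.05, beside 6.31% of all genes. Largest were ACSL6, another acyl-CoA synthetase, at 1.52 ± 0.317 against 0.90 ± 0.384 FPKM (0.42, adjusted p = 0.765) and AGPAT4 at 6.38 ± 2.11 against 8.42 ± 0.992 FPKM (-0.39, adjusted p = 0.778). For the difference between the tissues in the diet difference, 0 of 25 passed, beside 0.00647% of all 15447 genes, and 5 had an unadjusted p under 0.05, beside 12.6% of all genes, with ACSL5 at 1.80 (SE 0.417, adjusted p = 0.205) and GPAT3 at -0.68 (SE 0.307, adjusted p = 0.396).

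Genes with levels most like those of the 3 leading enzymes were found by the largest distance from the enzyme over the 6 samples of a tissue, on log2(FPKM + 1) after subtracting each gene's own mean, among genes that averaged 10 FPKM or more. This is a description over few samples. For GPAM in liver, among 3963 genes, they were BASP1, a membrane-bound protein first known from nerve cells, within 0.31, CHDSD within 0.41 and KAT2B, a lysine acetyltransferase, within 0.43. BASP1 was at 124, 140 and 129 FPKM in HFD livers and 48.3, 53.4 and 67.4 FPKM in ND liver. As these genes were chosen for closeness to GPAM in each liver, their higher levels on HFD followed from the choice.

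For MOGAT1 in liver they were ASPG, an asparaginase, within 0.20, PHGDH, the first enzyme of serine synthesis, within 0.23 and TMEM120A within 0.23. ASPG was at 21.3, 20.0 and 22.5 FPKM in HFD livers and 44.6, 49.8 and 39.2 FPKM in ND liver. The lower levels of these genes on HFD likewise followed from their choice for closeness to MOGAT1. For DGAT2 in abdominal fat, among 5824 genes, the closest were XKRX within 0.75, ACKR4, a chemokine scavenger receptor, within 0.77 and BMPER, a secreted BMP-binding protein, within 0.78. Since they were chosen for closeness to DGAT2 in each fat sample, all 3 were bound to be higher in ND fat 2 than in the other ND fat samples. BMPER was at 20.5, 91.3 and 28.8 FPKM in ND fat 1, 2 and 3 and at 81.0, 68.0 and 73.2 FPKM in HFD fat.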

How the data were processed

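Liver and abdominal fat RNA was read on a BGISEQ-500 instrument. FPKM values, rounded to 2 decimals, were deposited by the authors for each gene and sample. The submitters' processing notes name HISAT2 2.0.4, Bowtie2 2.2.5 and RSEM 1.2.12. The genome build, any filter and the use of strand in counting are not given in the sources used here, so reads of AGPAT3, LPIN1 and MOGAT1, which overlap other genes in the RefSeq annotation of chicken (GRCg7b), may be shared with those. Totals of reads are unknown. The FPKM that 1 read is worth, taken from the steps among 79 low genes relative to the other samples, lay between 0.978 and 1.01. Genes were kept for this only where their values lay within 12% of whole multiples of the smallest. Steps near 1 thus follow in part from the choice of genes, and it cannot be concluded that depths were alike.

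The 7 genes and all lists were chosen with earlier results of these data known. Genes were matched by symbol, and older symbols (AGPAT9 for GPAT3, AGPAT6 for GPAT4, EPT1 for SELENOI) through the RefSeq table. The scale was log2(FPKM + 1). Genes averaging 0.1 FPKM or more in the samples fitted were tested with limma 3.58.1 in R 4.3.3 (eBayes with trend, two-sided, Benjamini-Hochberg adjustment). Diets were compared in a fit of 6 samples for each tissue, and tissues and the interaction in a fit of 12 samples in 4 groups, without a block. Of the other pathway genes, up to 4 higher and 4 lower with the largest differences among those called were named, or the 2 largest where none was called. Other pseudocounts, scalings, filters and fits, and leaving out each sample, were tried as alternatives. The fits were tested on simulated data.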

Additional observations from a re-analysis of the deposited data

Results flagged for a closer look

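The HFD minus ND difference of GPAM was larger in liver than in abdominal fat by 1.84 on the log2 scale (SE 0.188). All 3 HFD birds were above all 3 ND birds in liver and all 3 were below them in abdominal fat, at 39.5 to 52.1 against 13.8 to 18.0 FPKM and at 2.09 to 2.35 against 2.83 to 3.39 FPKM. GPAM had been chosen with its liver difference known, so this gap between the tissues is given as a value, and no test of it is used.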

How the results depend on the processing

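Of 595 alternative values of the differences of the 7 enzymes, 560 moved by less than the spread between birds and 35 moved by more, and of 412 alternatives for the named other genes, 410 kept their direction and their side of the threshold, while ACSL5 and GPAT4 in liver passed it when the 12 samples shared a fit. The cause of these changes was not tested. Some alternatives could not move the difference of an enzyme at all. Filters, the eBayes setting, the block and the shared fit alter only its SE, and leaving out a sample outside the groups compared leaves it unchanged. Such values are among the 560, so that count is not a measure of stability. In liver, with 0 genes called between the diets, 4 were called with a pseudocount of 0.1 FPKM, 8 with no filter and 6 with a mean of at least 1 FPKM. The fit of all 12 samples called 111 (2 of them other pathway genes), and 0 to 1 were called without each sample. At the threshold given in the methods (a log2 difference of 0.5 or more in size with p at or under 0.001 before adjustment), 85 were called with the p of limma. The methods do not name the test behind that threshold, so such counts cannot be set beside those of the study. The MOGAT1 difference in liver became -1.21 with median-of-ratios scaling. In abdominal fat, with 1 gene called, the counts were 2 with the smaller pseudocount, 0 with no filter, 14 at the threshold in the methods, 2 in the fit of all samples and 0 to 4 without each sample. For the difference between the tissues in the diet difference, with 1 gene called, which was one of the 7 enzymes and from which nothing is read, they were 0 with median-of-ratios scaling, 2 with no filter, 78 at the threshold in the methods and 0 to 6 without each sample. Of the genes called between the tissues, 19.1% were higher in liver on ND and 21.3% on HFD, and with quantile normalization 48.1% and 48.1%, with median-of-ratios scaling 48.8% and 48.3%.

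Labels and methods do not tie equal replicate numbers to a bird. Deviations from the group means were correlated at 0.0716 to 0.242 between liver and fat samples with the same number. There were 6 such pairs, each best with its own number. Between liver and fat samples of a diet with different numbers the correlations were -0.203 to -0.00337. Deviations within a group add to 0, so positive values for equal numbers push these below 0. They are therefore no separate sign of pairing. HFD and ND samples of a tissue, which are different birds, were at -0.150 to 0.0640. Since no label ties the numbers, the main fits had no block. Liver and fat of a diet came from the same birds, so the fits of 12 samples treated the tissues of a bird as independent. As an alternative, the replicate number was used as a block. In the fits of a single tissue, liver or abdominal fat, this block joined HFD and ND samples of equal number, which are different birds. The 0 genes called between the diets in each of these fits therefore say nothing about birds shared by the tissues. In the fit of 12 samples the block was diet with number, and 0 genes were called for the interaction.

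FPKM without read totals gave no counting error, and with 3 birds in a group a single bird moved some means widely, as ND fat 2 did for DGAT2 (1.82, and 2.56 without it). Genes near 1 FPKM, such as DGAT2 in liver and MOGAT1 in abdominal fat, have the least certain ratios.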

Other observations

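GPAM and ACSL5, the enzyme and the acyl-CoA synthetase with the largest diet differences in liver among the genes described, lie near each other in the order of genes in the RefSeq annotation of chicken (GRCg7b), with 3 genes between them. Of these, the 1 that codes for protein, TECTB, was at 0 to 0.05 FPKM in the 6 livers. The means of GPAM and ACSL5 were 2.83 and 2.73 times higher in HFD liver than in ND liver. GPAM was chosen with its liver difference known, and the difference of ACSL5 did not pass the test across all genes. No other pair of the genes described was looked up in this way. These are values seen side by side, and a link between them was not tested.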
